A study of Homo sapiens with 4 samples.

Results

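RNA sequencing was examined for 9 genes of extracellular proteolysis in breast cancer cells with and without knockdown of QPRT, the enzyme of the kynurenine pathway that leads to NAD+. The genes were taken by name, with earlier results of these data known. They comprised the plasminogen activators PLAU and PLAT, the receptor PLAUR, the metalloproteases MMP7, MMP14 and MMP15, and the inhibitors TIMP1, TIMP2 and TIMP3. All 9 had a row among the 50653 genes of the deposited table, and 8 of the 9 were among the 14321 genes with a mean of at least 1 FPKM, the exception being PLAT. The unit of the table, FPKM, scales the fragments of a gene to its transcript length and to library size, so that levels can be compared roughly between genes. The length that fits these values is the mean over a gene's annotated transcripts, which may differ from that of the transcripts expressed. Sums, shares and ratios across genes rest on these lengths.

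The 4 libraries were BT-20 cells with control shRNA, BT-20 cells with QPRT shRNA, MDA-MB-468 cells with control shRNA and MDA-MB-468 cells with QPRT shRNA, 1 library each. Both lines were established from human breast carcinomas and are described as triple-negative, that is, without hormone receptors or amplified HER2. The short hairpin RNAs were carried by a puromycin-selected lentiviral vector into stable lines, so all 4 cultures had been transduced and selected, and the control cells carried a hairpin as well. The labels do not say whether a stable line was 1 clone or a pool, and 1 QPRT hairpin was sequenced per line, so an effect of the hairpin apart from QPRT cannot be told apart from the knockdown. According to the methods the lines were grown in different media, so a difference between lines cannot be told apart from one between media.

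The libraries held 10321998 to 10945948 fragments. QPRT stood at 249 and 40.5 FPKM in BT-20 and at 117 and 18.3 FPKM in MDA-MB-468 with control and QPRT shRNA, a difference in log2(FPKM + 1) of -2.59 and -2.62. The 8 breast epithelial markers summed to between 7209 and 10119 FPKM and none was at 0 in any library. PGR was at 0 in all 4 libraries, ESR1 was at most 5.76 FPKM, and ERBB2 was between 51 and 129 FPKM. Markers of gut epithelium and plasma cells were present at low levels, and were lower in the QPRT shRNA libraries. The 16 intestinal markers summed to 42.2 and 18.4 FPKM in BT-20 and to 102 and 20.8 FPKM in MDA-MB-468, with 13 of 16 lower in both lines. The 7 markers listed for plasma and B cells summed to 45.9 and 20.7 FPKM in BT-20. In MDA-MB-468 they summed to 106 and 20.8 FPKM. The list held PIGR, an immunoglobulin receptor of epithelial cells and not a plasma or B cell gene. PIGR made up 13.1 and 5.35 FPKM of the sums in BT-20 and 29.5 and 4.998 FPKM in MDA-MB-468.

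As background, urokinase (PLAU) and tissue-type activator (PLAT) cut plasminogen to plasmin, a protease that dissolves fibrin and opens the matrix around cells. PLAUR holds urokinase at the cell surface. Matrix metalloproteases are zinc enzymes made as inactive precursors. MMP14 and MMP15 are anchored in the membrane, and MMP7 is a small secreted enzyme of epithelial cells. TIMPs bind the active site of metalloproteases, and TIMP2 also takes part, together with MMP14, in the activation of the MMP2 precursor at the cell surface. In tumours these genes are made by cancer cells and by stromal cells, which a culture of 1 line should lack.

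**Figure D1:**
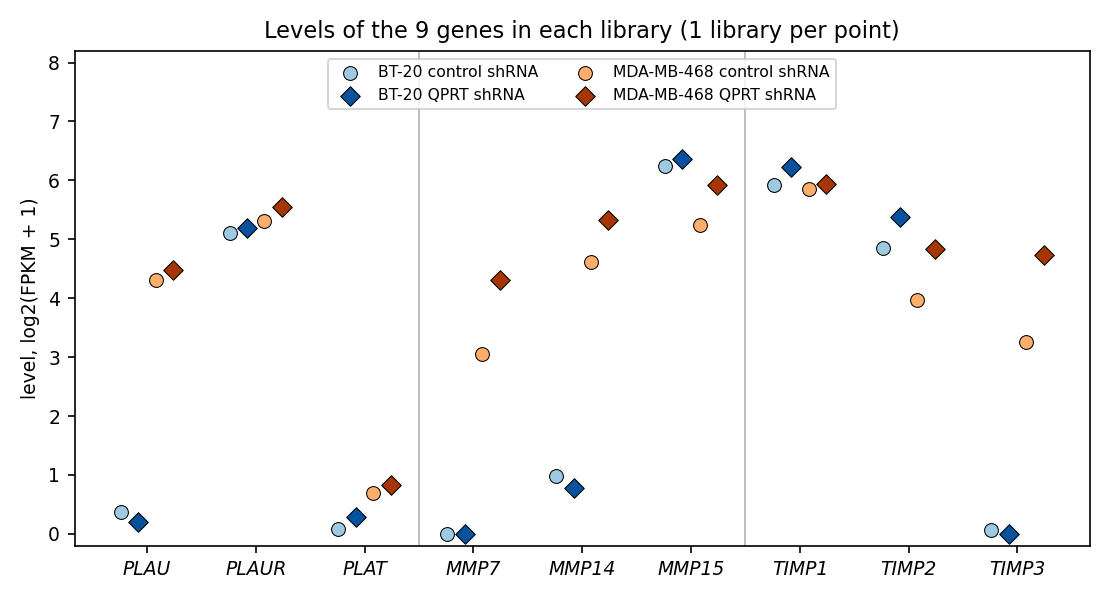
Level of each gene as log2(FPKM + 1) on the y axis, 1 point per library, with circles for control shRNA and diamonds for QPRT shRNA, BT-20 in blue and MDA-MB-468 in orange. PLAU, MMP7, MMP14 and TIMP3 sit at the bottom in BT-20, below 1 FPKM, and well above it in MDA-MB-468, while PLAUR, MMP15, TIMP1 and TIMP2 are at 14.6 FPKM or more in all 4 libraries.

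By level, 4 of the 9 genes were well expressed in both lines and 4 were well expressed in MDA-MB-468 but low or at 0 in BT-20. PLAUR, MMP15, TIMP1 and TIMP2 were at 14.6 FPKM or more in every library, whereas PLAU, MMP7, MMP14 and TIMP3 were below 1 FPKM in both BT-20 libraries and at 7.33 FPKM or more in both MDA-MB-468 libraries. The line difference, MDA-MB-468 minus BT-20, was tested with limma on log2(FPKM + 1) in a fit of all 4 libraries, in which the 2 shRNA libraries of a line stood in for its replicates. Of the 8 genes tested, 4 were called higher in MDA-MB-468 at an adjusted p under 0.05 and 2 were called lower, where 30.7% and 24.4% of all genes were. A line difference was thus common among all genes, and 55.1% were called in either direction. With a difference of at least 2-fold as well, 4 of 8 were higher and 0 lower, against 16.9% and 13.2% of all genes. Compared within 1 shRNA at a time, without a test, 4 of 8 were again at least 2-fold higher and 0 lower. Of all genes, 18.3% were higher and 13.2% lower with control shRNA, and 17.4% and 13.9% with QPRT shRNA. PLAU, MMP7, MMP14 and TIMP3 passed the filter through MDA-MB-468 alone, so their direction was partly set by it. These counts, and the line p-values given for these 4 genes below, therefore support nothing beyond the levels themselves. The fit has 1 residual degree of freedom per gene, and nothing says that the libraries came from separate cultures, so these p-values measure only the spread between these libraries. That spread was in effect pooled over all genes, since the prior degrees of freedom were infinite, and the adjusted p-values moved widely with the fit (for PLAU from 5.53e-51 to 0.147 over the 9 limma alternatives). Fitted without a filter on low genes, the 6 line calls were lost, with limma adjusted p-values of 0.147 to 0.414.

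PLAU, on chr10:73909177-73917497 of GRCh38, was at 0.296 FPKM in BT-20 with control shRNA and 0.144 FPKM with QPRT shRNA, from 4 and 2 fragments. In MDA-MB-468 it was at 18.8 FPKM with control shRNA and 21.2 FPKM with QPRT shRNA, from 262 and 278 fragments. The lines did not overlap, and the line difference was 4.11 on the log2 scale (SE 0.279, limma adjusted p = 6.79e-47). By FPKM, MDA-MB-468 was 63.6-fold higher with control shRNA and 147-fold higher with QPRT shRNA, and both ratios rest on the few BT-20 fragments. An antisense gene, C10orf55, covers 31.0% of the PLAU exon bases and was at 0 in BT-20 and at 0.337 and 0.596 FPKM in MDA-MB-468. Whether strand was used in counting is not given in the sources used here, so reads of the pair may be mixed.

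The knockdown difference of PLAU had opposite signs in the lines, -0.18 for BT-20 against 0.16 for MDA-MB-468 in log2(FPKM + 1). The interval of the fragment ratio in MDA-MB-468 ran from -0.079 to 0.42 on the log2 scale, so no difference was detectable at this depth. These intervals are exact Clopper-Pearson 95% intervals, and they cover counting error only.

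PLAUR, the urokinase receptor on chr19:43646095-43670547, was abundant in both lines. Its level was 33.5 and 35.5 FPKM in BT-20 and 38.7 and 46.0 FPKM in MDA-MB-468 with control and QPRT shRNA. The line difference of 0.28 (SE 0.216) did not pass the test (limma adjusted p = 0.265). In order of level, BT-20 control, BT-20 QPRT and MDA-MB-468 control libraries followed each other closely, and the interval of the control shRNA libraries' line ratio, -0.017 to 0.43 on the log2 scale, spanned 0. The MDA-MB-468 library with QPRT shRNA was the highest, with a log2 fragment ratio of 0.25 over its control (interval 0.045 to 0.46).

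PLAT, on chromosome 8, was the lowest of the plasminogen genes. It was at 0.0578 and 0.225 FPKM in BT-20, from 1 and 4 fragments, and at 0.617 and 0.773 FPKM in MDA-MB-468, from 11 and 13 fragments. Its mean of 0.418 FPKM left it out of the tests. The interval of its knockdown ratio in MDA-MB-468, -0.95 to 1.63 on the log2 scale, spanned 0. PLAUR thus supplied 99.0% of the summed FPKM of the 3 genes in each BT-20 library, and in MDA-MB-468 PLAUR supplied 66.5% and 67.7% and PLAU 32.4% and 31.2%.

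MMP7, on chr11:102520508-102530753, was detected in 1 line alone. No fragment was counted in either BT-20 library, which allows at most 0.241 and 0.235 FPKM (3 fragments per library). In MDA-MB-468 it was at 7.33 FPKM with control shRNA and 18.8 FPKM with QPRT shRNA, from 94 and 228 fragments. MDA-MB-468 was at least 30.4-fold higher with control shRNA and at least 80.3-fold higher with QPRT shRNA, against that limit. The limma line difference was 3.68 (SE 0.290, adjusted p = 4.14e-35).

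With QPRT shRNA, MMP7 in MDA-MB-468 was 2.57-fold higher by FPKM, and the log2 fragment ratio was 1.36 with an interval of 1.01 to 1.73. The difference of 1.25 in log2(FPKM + 1) was exceeded by 57 of the 14321 genes. Paneth cells of the gut also make MMP7, and 4 of 4 Paneth cell markers were lower with QPRT shRNA in both lines. Their sum was 21.7 and 10.6 FPKM in BT-20, where MMP7 was at 0, and 40.8 and 14.4 FPKM in MDA-MB-468. The sum was thus higher in the MDA-MB-468 control library than in that of BT-20, as MMP7 was, and lower with QPRT shRNA in MDA-MB-468, where MMP7 was higher. The part of such cells in the MMP7 level was not tested.

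MMP14, the membrane-type enzyme on chr14:22836557-22849027, was at 0.966 and 0.723 FPKM in BT-20, from 13 and 10 fragments. In MDA-MB-468 it was at 23.4 FPKM with control shRNA and 39.4 FPKM with QPRT shRNA, from 325 and 515 fragments. The lines did not overlap, and the line difference was 4.09 (SE 0.265, limma adjusted p = 1.86e-51). The knockdown ratio of fragments in MDA-MB-468 was 0.75 on the log2 scale (interval 0.55 to 0.95). In BT-20 it was -0.42, with an interval of -1.77 to 0.89 that spanned 0.

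MMP15, a close relative of MMP14 on chr16:58025566-58046901, had the opposite line pattern. It was at 75.0 and 81.7 FPKM in BT-20 and at 37.0 and 59.5 FPKM in MDA-MB-468 with control and QPRT shRNA. Both BT-20 libraries were above both MDA-MB-468 libraries, and the line difference was -0.73 (SE 0.207, limma adjusted p = 0.00126). The MDA-MB-468 level was 0.493 times the BT-20 level with control shRNA and 0.728 times with QPRT shRNA. The log2 knockdown ratio of fragments was 0.68 in MDA-MB-468 (interval 0.56 to 0.80) and 0.12 in BT-20 (interval 0.030 to 0.21).

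The 250 bases before the gene start are shown for MMP7, MMP14 and TIMP3, the genes that were low in BT-20 and higher with QPRT shRNA in MDA-MB-468, because their promoters differ in kind. The sequences are from RefSeq (GRCh38.p14), which held a window for 7 of the 9 genes, and are written 5′ to 3′ on the strand of the gene. Capitals mark every match, on either strand, to the AP-1 site TGANTCA, the GC box GGGCGG and the ETS site GAGGAAG, and on the gene strand alone to the TATA box TATAAA. No match overlapped another in these windows. PLAT and TIMP2 were without a window.
MMP7, chr11:102530748-102530997, minus strand: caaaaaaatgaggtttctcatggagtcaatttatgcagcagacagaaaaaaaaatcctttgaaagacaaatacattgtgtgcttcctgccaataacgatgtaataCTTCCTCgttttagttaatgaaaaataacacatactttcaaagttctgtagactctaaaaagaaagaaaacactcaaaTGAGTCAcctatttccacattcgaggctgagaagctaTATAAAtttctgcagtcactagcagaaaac
MMP14, chr14:22836335-22836584, plus strand: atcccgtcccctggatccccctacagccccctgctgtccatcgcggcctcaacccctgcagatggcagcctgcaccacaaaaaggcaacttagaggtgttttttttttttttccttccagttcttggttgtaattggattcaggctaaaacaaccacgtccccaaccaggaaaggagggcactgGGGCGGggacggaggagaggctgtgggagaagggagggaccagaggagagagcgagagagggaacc
TIMP3, chr22:32801455-32801704, plus strand: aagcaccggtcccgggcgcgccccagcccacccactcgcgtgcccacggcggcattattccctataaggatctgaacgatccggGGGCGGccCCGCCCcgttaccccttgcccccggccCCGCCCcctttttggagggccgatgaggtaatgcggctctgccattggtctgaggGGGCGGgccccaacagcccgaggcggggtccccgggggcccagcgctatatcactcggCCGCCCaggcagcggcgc

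The MMP7 window was AT-rich, with a GC content of 33.6% and 3 CpG sites, where the median of 35114 windows was 58.0% and 11. It held 1 TATA box at 30 bases, 1 AP-1 match at 67 bases and 1 ETS match at 145 bases before the start. The same letters occurred in 6.80%, 6.57% and 11.2% of all windows. The TIMP3 window had a GC content of 72.4%, 26 CpG sites and 5 GC boxes, and the MMP14 window 56.8%, 7 CpG sites and 1 GC box. A GC box was present in 42.6% of all windows. MMP15 held 5 GC boxes at a GC content of 74.8%, TIMP1 held 2 GC boxes, and PLAUR held 1 AP-1 match. PLAU held 3 GC boxes and 1 ETS match in a window with a GC content of 68.8%, and no match in another at 46.8%. A match describes the letters alone, and no factor was measured at these sites.

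TIMP1, on chrX:47582313-47586789, was high in every library. It was at 59.3 and 73.7 FPKM in BT-20 and at 57.0 and 60.4 FPKM in MDA-MB-468 with control and QPRT shRNA. The lines overlapped, and the line difference of -0.17 (SE 0.207) did not pass the test (limma adjusted p = 0.505). The BT-20 library with QPRT shRNA was the highest, with a log2 fragment ratio of 0.31 over its control (interval 0.13 to 0.50), while the interval in MDA-MB-468, -0.11 to 0.28, spanned 0.

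TIMP2, on chr17:78852977-78925387, had the lowest unadjusted p of the 8 tested genes for the shRNA. It was at 27.9 FPKM with control shRNA and 40.4 FPKM with QPRT shRNA in BT-20, from 961 and 1432 fragments. In MDA-MB-468 it was at 14.6 and 27.5 FPKM, from 519 and 921 fragments. The level with QPRT shRNA was above that with control shRNA in 2 of 2 lines, by 1.45-fold and 1.88-fold. The log2 fragment ratios were 0.54 (interval 0.42 to 0.66) and 0.91 (interval 0.76 to 1.07). Over both lines the difference was 0.69 (SE 0.225), with an unadjusted p of 0.00201 and an adjusted p of 0.196 by limma, so it did not pass the test. TIMP2 was among the genes the study picked on these libraries for display, so its direction is not independent evidence. CEP295NL, which shares 3.52% of the TIMP2 exon bases on the same strand, was at most 0.473 FPKM.

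The line difference of TIMP2 was -0.71 (SE 0.225, limma adjusted p = 0.00369), with the lower levels in MDA-MB-468. Fitted on the line alone, its adjusted p was 0.0731. The ratio of MDA-MB-468 to BT-20 was 0.524 between the control libraries and 0.680 between those with QPRT shRNA. The MDA-MB-468 library with QPRT shRNA, at 27.5 FPKM, lay at the level of the BT-20 control library, at 27.9 FPKM.

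TIMP3, a TIMP that binds to the matrix, is encoded on chr22:32801701-32863043. It was at 0.0409 FPKM in BT-20 with control shRNA, from 2 fragments, and at 0 with QPRT shRNA, which allows at most 0.0597 FPKM. In MDA-MB-468 it was at 8.55 FPKM with control shRNA and 25.5 FPKM with QPRT shRNA, from 431 and 1210 fragments. MDA-MB-468 was 209-fold higher with control shRNA (interval 57.5 to 1732). With QPRT shRNA it was 426-fold higher against that limit, and the interval began at 346-fold. The limma line difference was 3.96 (SE 0.287, adjusted p = 1.61e-41). SYN3, which overlaps TIMP3 on the other strand without sharing exon bases, was at 3.08 and 3.11 FPKM in BT-20 and at 1.39 and 1.81 FPKM in MDA-MB-468.

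With QPRT shRNA in MDA-MB-468, TIMP3 was 2.98-fold higher by FPKM, the greatest ratio among the 9 genes in that line. The log2 fragment ratio was 1.57 (interval 1.41 to 1.74), and 28 of the 14321 genes had a greater difference in log2(FPKM + 1). In BT-20 both counts were under 3 fragments and give no ratio.

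RNA of 1 line that reaches a library of the other would add such low counts. For 26 genes at 20 FPKM or more in MDA-MB-468 and under 0.1% of that level in the BT-20 control library, the median level in the BT-20 library with QPRT shRNA was 0.499% of that in MDA-MB-468. TIMP3 and MMP7 were at 0 in that library. PLAU stood at 1.48% and 0.721% and MMP14 at 3.08% and 2.30% of their MDA-MB-468 mean in the BT-20 libraries with control and QPRT shRNA. The part of such RNA in these low values was not tested.

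**Figure D2:**
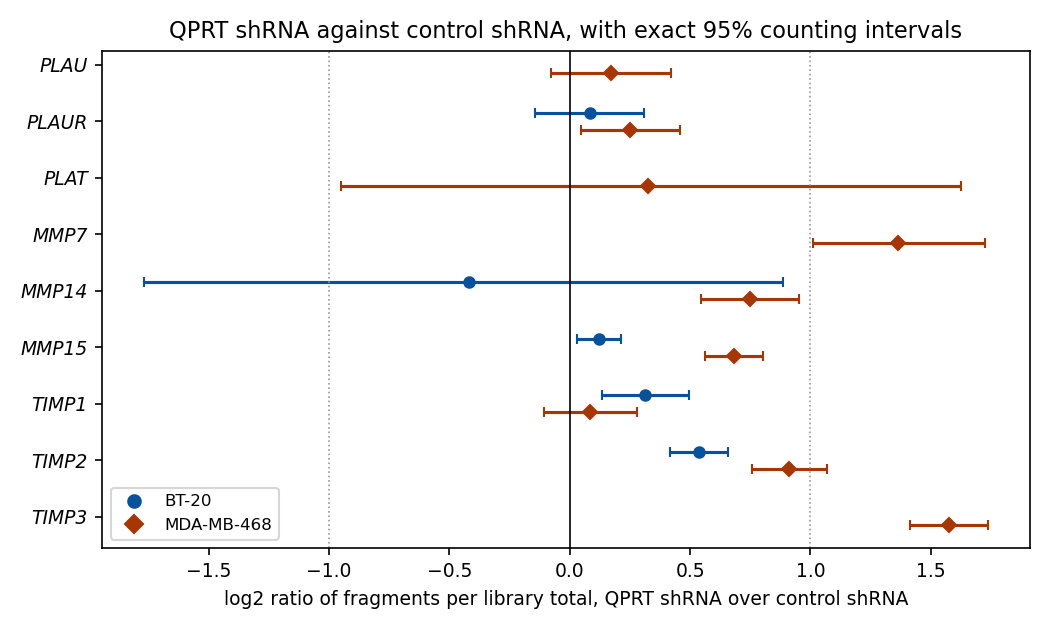
Log2 ratio of fragments per library total, QPRT shRNA over control shRNA, on the x axis for each gene, BT-20 as blue circles and MDA-MB-468 as red diamonds, with bars for the exact 95% counting interval and dotted lines at 2-fold. In MDA-MB-468 the intervals of PLAUR, MMP7, MMP14, MMP15, TIMP2 and TIMP3 lie above 0, with MMP7 at 1.36 and TIMP3 at 1.57. Ratios with fewer than 10 fragments in a library are not drawn.

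The absolute difference with QPRT shRNA was smaller in MDA-MB-468 than in BT-20 for PLAU, PLAT and TIMP1, and larger for the other genes. The same share over all genes was not computed. Of the genes with a larger difference, MMP7, MMP14 and TIMP3 had 13 fragments or fewer per BT-20 library, where log2(FPKM + 1) understates changes. For MMP7, with 0 fragments in BT-20, the outcome was fixed in advance. Whether the lines differ was not tested. With 1 library per line and shRNA, a difference within a line has no replicate check and no test. Of the 8 genes above the filter, 2 were at least 2-fold higher in MDA-MB-468 (TIMP3 and MMP7) and 0 lower, where 1.03% of all genes were higher and 0.866% lower. In BT-20 0 of 8 passed 2-fold in either direction, against 1.05% of all genes higher and 0.649% lower. In MDA-MB-468 all 8 differences were above 0, the median of the 8 was 0.70 against 0.011 over all genes, and 51.5% of all genes were above 0. In BT-20, 4 of the 8 were above 0, 3 were below and MMP7 was at 0, and the median was 0.040 against 0.048 over all genes. A gene high in 1 line alone could pass the filter, so these counts describe the 8 genes and support nothing more.

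**Figure D3:**
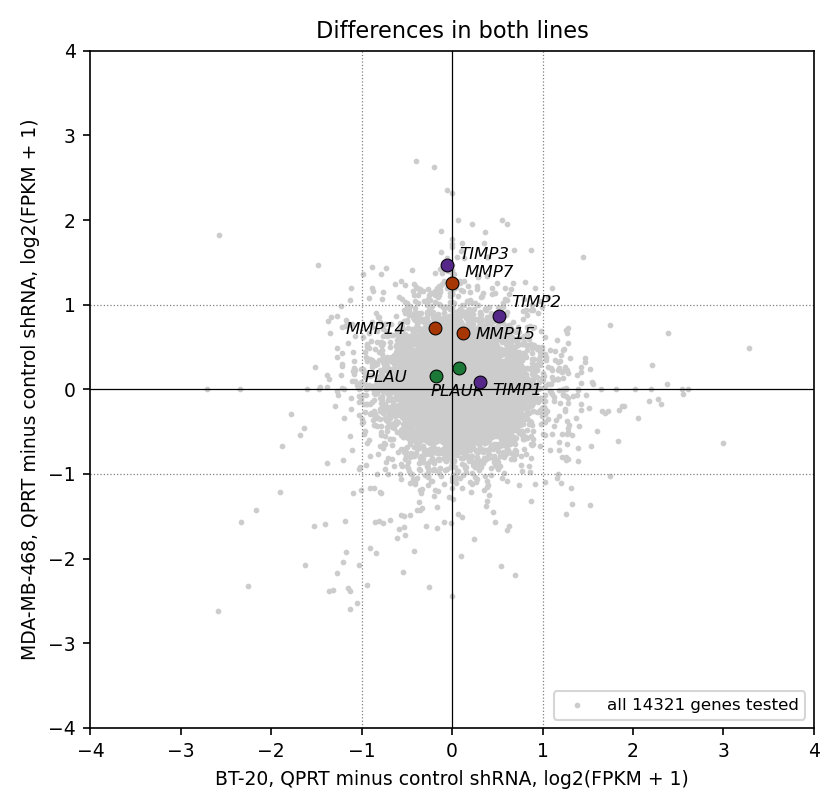
Difference in log2(FPKM + 1), QPRT minus control shRNA, in BT-20 on the x axis and in MDA-MB-468 on the y axis for the 14321 genes tested in grey, with the plasminogen genes in green, the metalloproteases in red and the TIMPs in purple; dotted lines mark 2-fold. The 8 genes lie above 0 on the y axis, TIMP3 and MMP7 above the upper dotted line, and TIMP2 lies farthest to the right of the 8, at 0.52.

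Over both lines, limma called 0 of the 8 genes for the shRNA, where 0.628% of all genes were called (0.265% higher and 0.363% lower). At an unadjusted p under 0.05 the fit gave 3 of 8 (TIMP2, TIMP3 and MMP7), against 4.80% of all genes. TIMP3 and MMP7 passed the filter through MDA-MB-468 alone, and the genes were chosen with earlier results of these data known. This count therefore describes the 8 genes and supports nothing more. In the limma fit TIMP3 differed by 0.71 (SE 0.287), with an unadjusted p of 0.0138 and an adjusted p of 0.642. MMP7 differed by 0.63 (SE 0.290), with an unadjusted p of 0.0310 and an adjusted p of 0.889. Both rested on MDA-MB-468, with BT-20 differences of -0.058 and 0. MMP15 followed in the limma fit with 0.40 (SE 0.207), an unadjusted p of 0.0564 and an adjusted p of 1.00. PLAU, PLAUR, MMP14 and TIMP1 had unadjusted p-values of 0.314 to 0.974. With limma-voom on the recovered fragments 1 of 8 was called, TIMP3 with 1.43 and an adjusted p of 0.00264. TIMP3 had 2 and 0 fragments in BT-20, so that call too rested on MDA-MB-468, with 1 library per shRNA.

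The differences of all genes followed the GC content of their transcripts, in opposite directions in the lines. Across 14232 genes, which are not independent replicates, Spearman's rho was -0.27 for BT-20 against 0.28 for MDA-MB-468. The transcripts of MMP7 (42.0% GC) and TIMP3 (48.7%) were below the median of 50.1%, and those of the other 7 genes were at 52.5% to 61.3%. After removal of a trend on GC content and length, the MDA-MB-468 differences were 1.51 for TIMP3, 1.35 for MMP7, 0.86 for TIMP2, 0.62 for MMP14 and 0.57 for MMP15. TIMP1 then stood at -0.047 in MDA-MB-468, so 7 of 8 were above 0. In BT-20 TIMP1 moved to 0.52 and TIMP2 to 0.45.

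**Figure D4:**
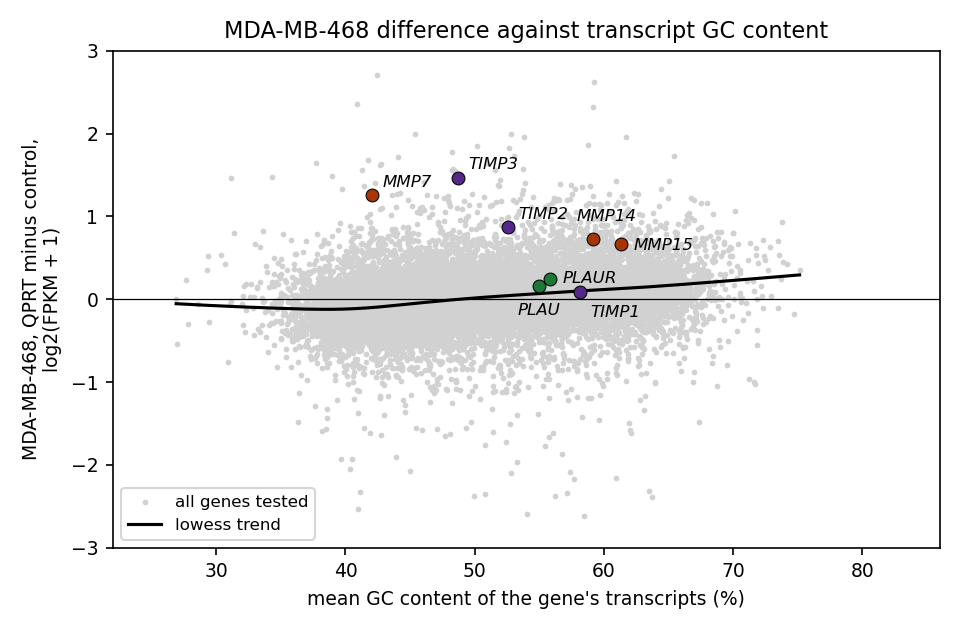
Difference in log2(FPKM + 1) in MDA-MB-468, QPRT minus control shRNA, on the y axis against the mean GC content of the transcripts of a gene on the x axis, for all genes tested in grey and the 8 genes in colour, with the lowess trend as a black line. MMP7 at 42.0% GC and TIMP3 at 48.7% GC lie far above the trend, and PLAU, PLAUR and TIMP1 lie close to it.

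The make-up of the enzymes and inhibitors differed between the lines. The summed FPKM of MMP7, MMP14 and MMP15 was 76.0 (control shRNA) and 82.4 (QPRT shRNA) for BT-20, against 67.8 and 118 for MDA-MB-468. MMP15 made up 98.7% and 99.1% of it for BT-20, against 54.6% and 50.5% for MDA-MB-468. MMP14 gave 34.6% and 33.5% and MMP7 10.8% and 16.0% of the sum in MDA-MB-468.

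The summed FPKM of the TIMPs was 87.2 and 114 for BT-20, against 80.2 and 113 for MDA-MB-468. TIMP1 was the major one in each library, with 68.0% and 64.6% for BT-20, against 71.1% and 53.3% for MDA-MB-468. TIMP3 gave 10.7% of the sum in MDA-MB-468 with control shRNA and 22.5% with QPRT shRNA. The TIMP sum divided by the metalloprotease sum was 1.15 and 1.39 for BT-20, against 1.18 and 0.963 for MDA-MB-468, so the ratio with QPRT shRNA was above that with control shRNA in 1 line and below it in the other. Whether a bulk level reflects fewer cells or less RNA per cell cannot be told apart.

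**Figure D5:**
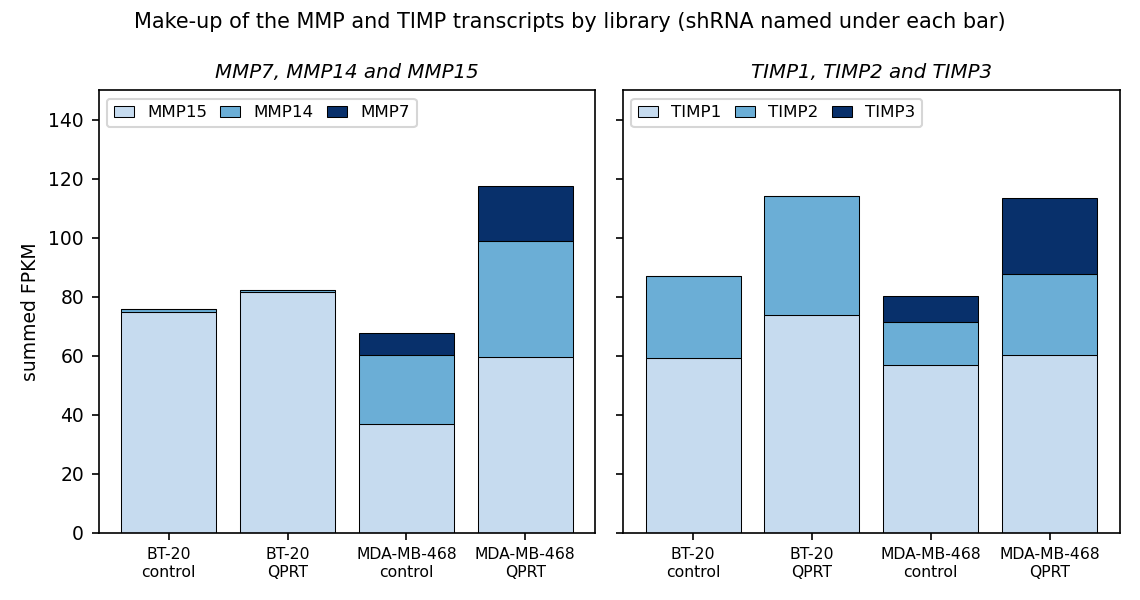
Summed FPKM on the y axis of the 3 metalloproteases (left) and the 3 TIMPs (right) in each of the 4 libraries, with the segments showing the single genes. MMP14 is a thin segment in BT-20 and a broad one in MDA-MB-468, MMP7 and TIMP3 can be seen in the MDA-MB-468 bars, and the MDA-MB-468 sums are higher with QPRT shRNA, at 118 and 113 FPKM, than with control shRNA, at 67.8 and 80.2 FPKM.

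Of the 23 matrix metalloprotease genes, 5 had a mean of at least 1 FPKM. Beside the 3 described, these were MMP17 and MMP23B, at most 4.66 FPKM, which were named after their values were seen, as were the other genes of this paragraph. MMP3, MMP9, MMP10, MMP12, MMP16 and MMP26 were at 0 in all 4 libraries. MMP2, the gelatinase that MMP14 activates, was at 0.379 and 0 FPKM in BT-20 and at 0.998 and 1.39 FPKM in MDA-MB-468. TIMP4 was at 0 in 3 libraries and at 0.0556 FPKM in the fourth. PLG, which encodes plasminogen itself, was at 0 in 3 libraries and at 0.0890 FPKM in the MDA-MB-468 control library. Plasminogen receptor ANXA2 was between 1235 and 1448 FPKM.

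Fibroblasts make many of these genes. The 8 fibroblast markers summed to 33.3 and 21.7 FPKM in BT-20 and to 21.7 and 17.9 FPKM in MDA-MB-468, with 6 of 8 lower with QPRT shRNA in both lines and POSTN at 0 in all 4 libraries. COL1A1 made up most of the sum, at 32.0 and 21.1 FPKM in BT-20 and at 17.5 and 14.7 FPKM in MDA-MB-468. The other 7 markers summed to 1.33 and 0.618 FPKM in BT-20 and to 4.27 and 3.20 FPKM in MDA-MB-468, and FAP was at 0 in both BT-20 libraries and at 1.19 and 2.46 FPKM in MDA-MB-468. Of the 5 leukocyte markers, CD14 was at 1.29 and 2.44 FPKM in BT-20 and at 15.4 and 26.1 FPKM in MDA-MB-468. CSF1R was at 6.13 and 4.44 FPKM in BT-20 and at 6.43 and 5.02 FPKM in MDA-MB-468. With QPRT shRNA, CD14 was thus higher and CSF1R lower in both lines. PTPRC was at most 0.340 FPKM, and CD163 and CD3E were at most 0.0642 FPKM. The 3 endothelial markers summed to 101 and 140 FPKM in BT-20, nearly all CDH5, and to 2.59 and 2.37 FPKM in MDA-MB-468. The part of such cells in the levels of the 9 genes was not tested.

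The wider plasminogen list held 36 genes, of which 26 were tested, and the wider list of metalloproteases and their regulators 53 genes, of which 18 were tested. For the shRNA, limma called 1 gene of the first list higher and 0 lower, and 0 of the second, where 0.265% of all genes were called higher and 0.363% lower. The median shRNA difference was -0.013 and 0.087 in the lists, against 0.033 over all genes. In MDA-MB-468 the medians were -0.029 and -0.0017, so the lists did not share the higher median of the 8 genes.

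The gene that rose was SERPINB5, the serpin maspin. It was at 1.77 and 12.4 FPKM in BT-20, from 19 and 137 fragments, and at 2.89 and 2.58 FPKM in MDA-MB-468, from 32 and 27 fragments. The limma difference of 1.08 (SE 0.281, adjusted p = 0.0253) rested on BT-20, where the difference was 2.28 against -0.12 in MDA-MB-468, and 0 genes of the list were called higher under 7 of the 9 alternative fits.

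In MDA-MB-468, 2 of the 26 tested genes of the plasminogen list passed 2-fold upwards and 1 downwards, against 1.03% and 0.866% of all genes. THBS1, the matrix protein thrombospondin, was at 45.5 and 101 FPKM there and at 86.6 and 85.8 FPKM in BT-20. SERPINF2, the plasmin inhibitor antiplasmin, was at 2.73 and 6.61 FPKM, and at 0.122 and 0.298 FPKM in BT-20. A2M, the broad protease inhibitor alpha-2-macroglobulin, was at 105 and 34.3 FPKM, from 1041 and 322 fragments, and at 0.724 and 0.705 FPKM in BT-20. A2M was thus lower in the library where MMP7 and TIMP3 were higher, and over both lines it did not pass the test (-0.80, limma adjusted p = 0.184).

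Of the metalloprotease list, ADAMTS1, a secreted matrix protease, was at 1.30 and 4.13 FPKM in MDA-MB-468 and at 0 and 0.0868 FPKM in BT-20. MEP1B, a meprin of gut and kidney brush borders, was at 2.97 and 0.273 FPKM in MDA-MB-468 and at 0.997 and 0.776 FPKM in BT-20. The BT-20 values came from 15 and 12 fragments. The summed intestinal markers given above were lower with QPRT shRNA in both lines. The part of such cells in the MEP1B level was not tested.

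Between the lines, limma called 6 of the 26 tested genes of the plasminogen list higher in MDA-MB-468 and 12 lower, and 2 of the 18 of the metalloprotease list higher and 9 lower, where 30.7% of all genes were called higher and 24.4% lower. The line difference was 5.15 for A2M and 4.29 for TFPI, an inhibitor of the clotting cascade at 0.105 and 0.103 FPKM in BT-20 and 19.3 and 21.8 FPKM in MDA-MB-468. It was -2.89 for FURIN, the convertase that activates the MMP14 precursor, at 120 and 157 FPKM in BT-20 and 15.6 and 19.8 FPKM in MDA-MB-468. ADAMTSL4 differed by -2.30 and SERPINE2, an inhibitor of plasminogen activators, by -2.20. In FPKM, SERPINE2 was at 15.8 and 21.2 in BT-20 and at 2.34 and 4.25 in MDA-MB-468.

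Genes with the most similar pattern were sought by Euclidean distance of centred log2(FPKM + 1) over the 4 libraries, as a description. This was done for the genes of the 9 with the largest called line difference in either direction (PLAU and MMP15) and the largest mean shRNA difference (TIMP3). Nearest to PLAU were AZGP1P1 (distance 0.128), WT1 (0.131) and NINL (0.141). Nearest to TIMP3 were LINC01235 (0.157), IL20RA (0.281) and CYYR1 (0.307). LINC01235 was at 0 and 0.0673 FPKM in BT-20 and at 8.32 and 27.8 FPKM in MDA-MB-468. Nearest to MMP15 among genes with a symbol was CBLN3 (0.0525), which was at 2.03 and 2.21 FPKM in BT-20 and at 0.477 and 1.45 FPKM in MDA-MB-468.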

How the data were processed

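Total RNA of the 4 cultures had been made into TruSeq libraries and sequenced on an Illumina NovaSeq. The authors trimmed the reads and deposited FPKM values, 1 per gene and library. Their processing notes name TopHat2 2.0.12, HTSeq 0.6.1, FastQC, MultiQC and CASAVA, and the genome build and annotation are not given in the sources used here. Genes were matched by Ensembl identifier to GENCODE 29 (GRCh38), which gave 49839 of 50653 rows a symbol and a transcript length. For symbols on several rows, 36 repeat rows were left out. FPKM multiplied by the mean transcript length and divided by the value of 1 fragment was whole within 0.02 for 87.3% to 87.6% of values above 0, and for all 9 genes. Totals of 10321998 to 10945948 fragments follow from that step. No molecular identifiers were used, so fragments can be copies of 1 molecule and intervals and limits cover counting error only.

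Differences are of log2(FPKM + 1), which understates changes of low genes, and genes with a mean of at least 1 FPKM (14321) were tested. limma 3.58.1 (R 4.3.3) was fitted with cell line and shRNA, eBayes with a trend, and Benjamini-Hochberg adjustment over all 14321 genes. The lines stand in for replicates of the knockdown. On simulated data this fit made more false calls than its nominal rate. DESeq2, which the study used, was not run on the deposited FPKM values, and limma-voom on recovered fragments stood in for a count test. Alternatives were another pseudocount, 2 scalings, 2 filters, removal of a lowess trend (fraction 0.3) on GC content and length, eBayes without trend, limma-voom on fragments, no cell line term and a 1.5-fold threshold. The 9 genes and the lists were chosen with earlier results of these data known. Named with values were the 9 genes, QPRT, and genes of the wider lists with a mean of at least 1 FPKM that passed 2-fold within a line or limma for the shRNA. Over both lists together, the 3 genes with the largest called line difference in each direction were named as well. Other steps used scipy 1.17.1, statsmodels 0.14.6, pandas 2.3.3, matplotlib 3.10.9 and numpy 2.4.6 under Python 3.11.15. Some single genes of the wider lists are not reported here.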

Additional observations from a re-analysis of the deposited data

Results flagged for a closer look

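Among the 9 genes and the genes of the wider lists that the naming rule picked, 7 differed in opposite directions in the lines, judged by the QPRT minus control difference in log2(FPKM + 1). The value given is the MDA-MB-468 difference minus the BT-20 difference. It has no test, because each line and shRNA has 1 library, so whether the lines differ was not tested. Among the 9 genes it was 1.53 for TIMP3, 0.91 for MMP14 and 0.34 for PLAU. The BT-20 levels of these 3 genes rest on 13 fragments or fewer per library. In the wider lists it was 1.15 for THBS1, 0.17 for TFPI, -0.67 for ADAMTSL4 and -2.39 for SERPINB5. TFPI was low and nearly level in BT-20, at 0.105 and 0.103 FPKM, so its BT-20 difference of -0.0036 gives no usable direction. THBS1 rests on 760 fragments or more in every library, and its BT-20 libraries were nearly level at 86.6 and 85.8 FPKM.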

How the results depend on the processing

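The cell line term of the fit paired the QPRT and control libraries of a line. The labels carry no replicate numbers to pair by, and leaving out 1 of the 4 libraries leaves no residual degree of freedom. For single genes, 336 of the values counted as the same, 7 moved, 7 lost a call, 1 gained one and 1 reversed. A limma value counted as the same if it kept its direction and call. An untested difference did so if it shifted no further than its counting interval reaches, where it had one. Small untested differences could thus change sign without counting as reversed. With the trend removed, TIMP1 in MDA-MB-468 went from 0.083 to -0.047, and its line difference with control shRNA from -0.055 to 0.17. PLAU reversed for the shRNA with voom, at 0.0871, and TIMP3 gained its shRNA call there. The adjusted p of the 8 genes for the shRNA ranged from 0.00264 (TIMP3, voom) to 1.00. Of the counts, 239 held and 37 changed by over 1.5 times.

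With no filter on low genes, limma called 0 genes of the table for the shRNA (813 at an unadjusted p under 0.05) and 0 for the line (7483), against 90 and 7893. The 4 higher and 2 lower line calls of the 8 genes therefore became 0 and 0, as did the 6 and 12 of the plasminogen list and the 2 and 9 of the metalloprotease list, and 5 genes of the latter in place of 2 were then higher in MDA-MB-468 with QPRT shRNA. Without the cell line term 0 genes were called for the shRNA (17 unadjusted), and without the shRNA term 1 of the 8 in place of 2 was called lower for the line. For the shRNA over all genes, 64 were called with voom, 45 at a mean of at least 5 FPKM and 2 with the trend removed. Voom called 1 of the 8 genes higher and 1 gene of the plasminogen list lower. The 1 plasminogen gene called higher became 0 with the 0.1 pseudocount, TPM scaling, no filter, the 5 FPKM filter, the trend removed, voom and no cell line term.

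At 1.5-fold, 5 of the 8 genes in place of 2 were higher in MDA-MB-468 and 2 in place of 0 were lower between the lines with control shRNA, where the 0.1 pseudocount gave 1. In the plasminogen list 1.5-fold gave 4 higher and 2 lower in MDA-MB-468 and 6 higher and 12 lower between the lines with control shRNA, and in the metalloprotease list 10 lower. The 0.1 pseudocount gave 2 lower in MDA-MB-468 in either list, and the trend removed left 1 higher in the plasminogen list. At a mean of at least 5 FPKM, which leaves fewer genes, the plasminogen list had 0 higher in BT-20, 1 higher in MDA-MB-468 and 5 lower between the lines with QPRT shRNA. The metalloprotease list then had 0 higher and 0 lower in MDA-MB-468, 0 higher in either line comparison, 2 lower with control shRNA and 0 called higher by limma. Beyond these the causes were not tested. At this depth genes with under 10 fragments in a library, such as PLAT and the BT-20 levels of PLAU and TIMP3, give no usable ratio.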
